A study of Mus musculus with 2 samples.

Results

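Zinc and copper handling was followed through 10 genes that encode metal-binding proteins, metal transporters and a metal-sensing transcription factor. They were taken by symbol: Mt1, Mt2, Slc39a4, Slc39a5, Slc30a1, Slc30a2, Slc30a10, Slc31a1, Atp7a and Mtf1. All 10 were found among the 43346 Ensembl genes of the gene tables, and the transcript tables list 23 transcripts for them. The data are 2 polyadenylated RNA libraries of small intestine from C57BL/6J mice, an inbred laboratory strain, at 8 weeks of age. The labels give both the same group, number them as biological replicates 1 and 2, and describe the tissue as pooled from males and females. They name neither a segment of the intestine nor a treatment or an allele. The design therefore asks how much RNA of each gene the tissue held and how far the replicates differed. With 1 group of n = 2 there was no comparison between groups and no test was run, so each library's value is given, with the mean ± SD as the only replicate error.

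Absorptive cells of the intestine take up dietary zinc through ZIP proteins (the Slc39 family), which move the metal into the cytosol. ZnT proteins (the Slc30 family) move it out again, into vesicles or towards the blood. Metallothioneins bind zinc and copper through clusters of cysteine side chains, and the zinc-sensing factor encoded by Mtf1 activates their genes through short DNA motifs called metal response elements. Copper enters through the channel encoded by Slc31a1 and leaves towards the blood through the copper pump encoded by Atp7a.

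Promoter stretches are shown for the genes whose levels or start sites the results turn on. Windows of 300 bases, from 250 before to 50 after each start site, came from RefSeq on GRCm38.p6 and matched 9 of the 10 members. Slc39a4 had no window and was not searched. The windows were searched on both strands for the metal response element core, spelled TGCACNC or TGCGCNC, and overlapping matches were counted separately. Capitals mark the matches. Each printed stretch lies before the start site and outside every annotated exon of its gene, so it can hold fewer matches than its window. The metallothionein and Slc30a1 stretches are shown because these genes are classical targets of the Mtf1 protein. They lie at chr8:94178839-94179081, chr8:94172368-94172617 and chr1:191906531-191906766, all on the plus strand.
Mt1: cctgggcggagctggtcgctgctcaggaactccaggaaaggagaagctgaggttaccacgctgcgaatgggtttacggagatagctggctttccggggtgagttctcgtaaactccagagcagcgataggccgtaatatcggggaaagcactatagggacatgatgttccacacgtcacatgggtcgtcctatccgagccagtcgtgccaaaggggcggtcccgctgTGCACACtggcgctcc
Mt2: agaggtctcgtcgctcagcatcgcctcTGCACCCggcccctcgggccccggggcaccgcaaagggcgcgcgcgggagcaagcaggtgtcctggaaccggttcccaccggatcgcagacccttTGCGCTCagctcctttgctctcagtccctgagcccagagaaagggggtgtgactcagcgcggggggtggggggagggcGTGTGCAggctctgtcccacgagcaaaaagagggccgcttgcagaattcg
Slc30a1: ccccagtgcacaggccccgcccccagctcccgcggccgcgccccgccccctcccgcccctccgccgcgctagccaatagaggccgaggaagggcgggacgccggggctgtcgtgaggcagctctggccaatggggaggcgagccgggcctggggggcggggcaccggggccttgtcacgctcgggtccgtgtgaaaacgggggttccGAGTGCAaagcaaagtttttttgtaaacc

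The Mt1 window held 3 matches, that of Mt2 held 4 and that of Slc30a1 held 2. Of these, 1, 3 and 1 lie before the RefSeq start site, and the rest lie after it. The Slc30a10 window held 3, of which a pair overlaps on opposite strands, and the Slc30a2 and Atp7a windows held 2 each. The Slc30a2 window was set at the start of Slc30a2-202, which held 2.00% and 1.09% of the gene's TPM (defined below). The main transcript, Slc30a2-201, starts 243 bases further downstream. Both Slc30a2 matches lie inside an annotated first exon, that of Slc30a2-204 among others, so they do not lie before every start site of the gene. At least 1 match occurred in 25.7% of 32817 RefSeq windows of this length, at least 2 in 7.12%, at least 3 in 1.97% and at least 4 in 0.518%. No match was found in the windows of Slc31a1 and Mtf1, which says only that these letters are not there. A match describes the letters, and no measurement of binding enters here.

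**Figure D1:**
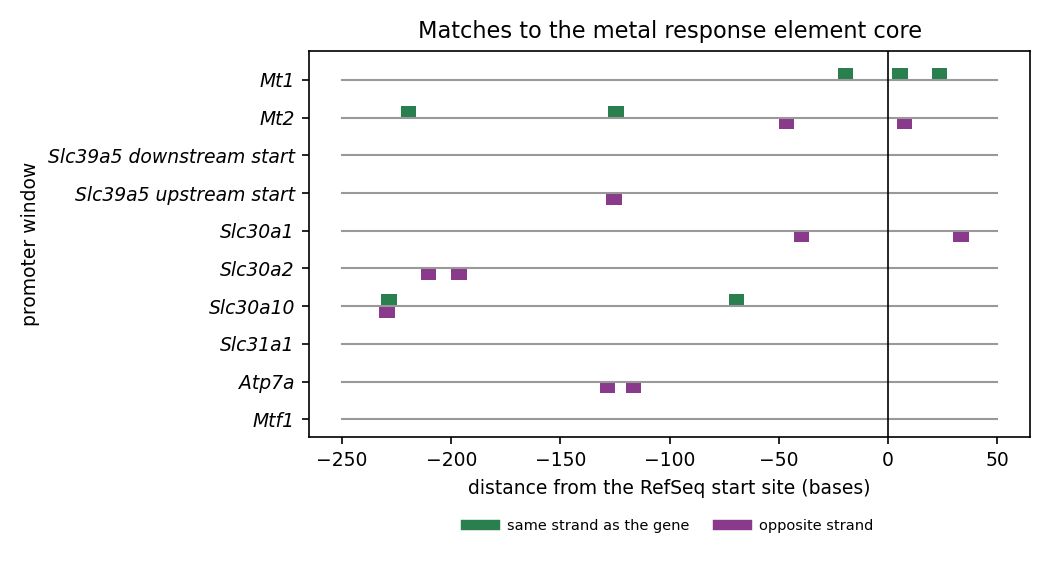
Matches to the metal response element core in the promoter windows of 9 members. Horizontal lines are windows of 300 bases by distance from the RefSeq start site, and bars are matches by strand; Mt2 holds 4 matches, Mt1 and Slc30a10 hold 3, and Slc31a1, Mtf1 and the downstream start of Slc39a5 hold none.

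Slc39a5, which encodes a zinc importer of the blood-facing side of the cell, has a RefSeq window at each of its 2 start sites. They are shown because the libraries differed in the transcript that begins at the downstream site. Both lie on the minus strand, at chr10:128401230-128401474 for the upstream start and chr10:128400528-128400716 for the downstream start. The upstream window held 1 match and the downstream window none.
Slc39a5 upstream start: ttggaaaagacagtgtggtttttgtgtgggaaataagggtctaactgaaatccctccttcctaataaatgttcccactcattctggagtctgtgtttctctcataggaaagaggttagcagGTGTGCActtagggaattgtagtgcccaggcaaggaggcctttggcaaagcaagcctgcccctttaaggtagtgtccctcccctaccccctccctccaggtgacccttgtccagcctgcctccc
Slc39a5 downstream start: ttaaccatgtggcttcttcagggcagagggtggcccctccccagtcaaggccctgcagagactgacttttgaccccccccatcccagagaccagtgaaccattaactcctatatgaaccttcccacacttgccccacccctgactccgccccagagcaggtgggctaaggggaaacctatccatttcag

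Replicate 1 held 45472946 expected counts (estimated fragments per gene) and replicate 2 held 45822403. All 12 brush border markers of absorptive cells reached 1 TPM (transcript abundance corrected for length and scaled to a fixed library total) in both libraries. Marker sums of neighbouring organs were far higher in replicate 1. There 15 exocrine pancreas genes summed to 272620 TPM (27.3% of all TPM), against 1792 TPM (0.179%) in replicate 2. The 10 stomach genes summed to 19753 and 51.5 TPM. In replicate 1, Tff2 and Tff1 held 42.9% and 26.0% of that sum, and only 8 of the 10 reached 1 TPM. The source of the pancreas and stomach marker RNA was not tested. Such pancreas and stomach sums lower every other TPM of replicate 1, and the median gene with a mean of at least 1 TPM lay 0.66 log2 units higher in replicate 2 (12260 genes). Differences between replicates are therefore given as log2((TPM + 1) / (TPM + 1)), replicate 2 over replicate 1, minus this median. The added 1 understates differences of low genes. In bulk tissue, fewer cells of a type and less RNA per cell cannot be told apart.

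Of the 10 members, 9 had at least 1 TPM in both libraries, against 49.3% of protein-coding genes. Mt1 was the highest of the members in each library, followed by the zinc importers Slc39a4 and Slc39a5, and Atp7a was the lowest. Neighbours in the order of mean level were compared by their TPM ratio within each library, which the shift of the median gene does not touch. The order was not the same in both libraries for Slc39a4 and Slc39a5, for Slc31a1 and Slc30a10, and for Slc30a10 and Slc30a1. For the other neighbours it was the same. Slc30a2 exceeded Slc31a1 1.42-fold in each library, although the TPM values of the pair overlapped between libraries. Mt2 exceeded Slc30a2 1.67-fold and 1.22-fold (mean log2 ratio 0.52 ± 0.31, SD, n = 2). The step from Slc30a1 to Mtf1 was uneven, at 5.53-fold and 1.31-fold, and its mean log2 ratio of 1.43 ± 1.47 (SD, n = 2) did not exceed its spread. The steps from Mt1 to Slc39a4, from Slc39a5 to Mt2 and from Mtf1 to Atp7a exceeded theirs.

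**Figure D2:**
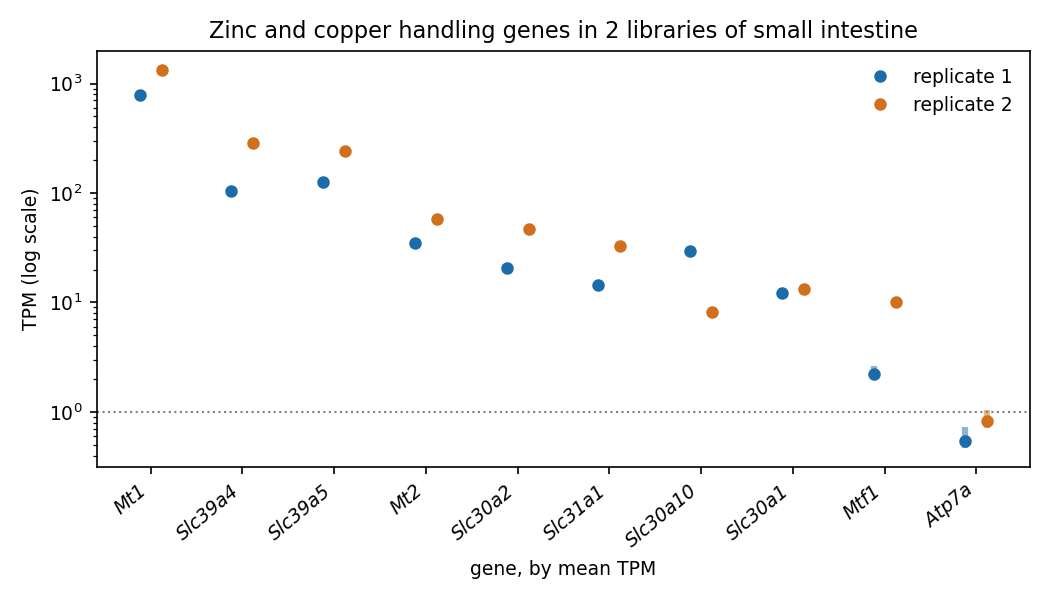
Level of each member in both libraries. The y axis is TPM on a log scale, points are the deposited TPM of each replicate, vertical bars are its deposited credibility interval and the dotted line marks 1 TPM; Mt1 stands at 791 and 1332 TPM, and only Atp7a lies below the line in both.

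The metallothionein genes were present at very unequal levels. Mt1 (ENSMUSG00000031765.7, chromosome 8, 94179082 to 94180327, GRCm38) was at 791 TPM in replicate 1 against 1332 TPM in replicate 2 (1062 ± 382, SD, n = 2), from 12249 and 16913 counts. It exceeded 99.0% and 99.2% of the genes with at least 1 TPM and ranked 114 and 95 among all genes. Mt2 (ENSMUSG00000031762.6, 94172664 to 94173568) lies 5513 bases upstream on the same strand. It was at 34.6 and 57.3 TPM (45.97 ± 16.1, SD, n = 2), from 564 and 764 counts. Both genes were higher in replicate 2 before centring, and after it neither difference was far from that of the median gene.

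Within each library Mt1 exceeded Mt2 by almost the same factor. The ratio of their TPM was 22.9 in replicate 1 and 23.2 in replicate 2, a mean log2 ratio of 4.53 ± 0.02 (SD, n = 2). The ratio needs no scaling between libraries, and it is far larger than its spread. Their mRNAs as annotated share no run of 76 bases, the read length, and the longest run in common is 20 bases. The models compared differ in length from the quantified ones, at 549 against 540 bases for Mt1 and 511 against 556 for Mt2. The counts of both genes were whole numbers in both libraries. Gm45774, a gene outside the naming rule, overlaps Mt2 by 749 bases on the opposite strand, and no level was available for it. Whether its reads entered the Mt2 counts was not tested. Relative to the median gene the difference between replicates was 0.09 log2 units for Mt1 and 0.05 for Mt2, though with a pseudocount of 0.1 it was -0.03 and -0.06, and with FPKM (a length-corrected level that does not sum to the same total in each library) it was -0.01 for Mt2. The other genes of the cluster were near or at 0. Mt3, a metallothionein best known from the brain, was at 0.72 and 2.30 TPM from 11 and 29 counts. Mt4, known from stratified epithelium, had 0 counts in both, which allows up to 0.380 and 0.439 TPM, taken as 3 counts and covering counting error only.

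Zinc import at the cell surface was represented by Slc39a4 and Slc39a5. Slc39a4 (ENSMUSG00000063354.6, chromosome 15, 76612383 to 76617384, minus strand) encodes the importer of the lumen-facing membrane, whose loss causes inherited zinc deficiency in humans. It was at 104 TPM in replicate 1 against 287 TPM in replicate 2 (195 ± 129, SD, n = 2), from 10482 and 22651 counts. Slc39a5 (ENSMUSG00000039878.8, chromosome 10, 128395931 to 128401229, minus strand) was at 125 and 240.3 TPM (183 ± 81.6, SD, n = 2), from 10840 and 16296 counts. Slc39a5 was the higher of the pair in replicate 1 and Slc39a4 in replicate 2. The log2 ratio of Slc39a4 to Slc39a5 was -0.27 and 0.25, with a mean of -0.01 ± 0.37 (SD, n = 2), so the importers did not differ beyond the spread between replicates.

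Relative to the median gene, Slc39a4 lay 0.79 log2 units higher in replicate 2 and Slc39a5 lay 0.27 higher. These differences were at percentiles 92.0 and 71.0 of the 12260 genes. Most brush border markers moved with Slc39a4: their median difference was 1.11, and 6 of 12 were over 2-fold higher in replicate 2. The 1 that was over 2-fold higher in replicate 1 was Alpi, at 3759 and 1663 TPM (-1.84 log2 units). Alpi held 65.8% of the marker sum in replicate 1 and 19.7% in replicate 2. That sum, 5710 and 8443 TPM, is not centred and rose by less than the median gene. None of the 12 was at 0. The part of these markers in the Slc39a4 values was not tested. Slc39a5 is also expressed in exocrine pancreas, whose markers differed between the libraries by far more than Slc39a5 and in the opposite direction. All 15 of those markers were over 2-fold higher in replicate 1, none at 0 in either library, and their part in the Slc39a5 level was not tested. All 5299 bases of Slc39a5 lie within Ankrd52, a gene outside the naming rule, on the opposite strand. Ankrd52 was at 12.3 and 18.1 TPM. The labels describe stranded libraries, but whether the counting used the strand is not given in the sources used here, so reads of these overlapping genes are not certain to have been separated.

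The start sites of Slc39a5 were used unequally. Slc39a5-201, which begins at the upstream site, held 96.2% of the gene's TPM in replicate 1 and 99.8% in replicate 2. Slc39a5-202 begins 763 bases downstream, exactly at the second RefSeq start, and its first exon of 235 bases ends at another splice site than the first and second exons of Slc39a5-201. Both transcripts have 1605 coding bases from the same start of translation. Slc39a5-202 was at 4.73 TPM in replicate 1 (431 counts) against 0.48 TPM in replicate 2 (34.4 counts). The deposited credibility intervals were 3.39 to 6.52 TPM and 0.12 to 1.15 TPM and did not overlap. Of 13 member transcripts with a mean of at least 1 TPM, only Slc39a5-202 and Slc30a10-201 had the interval of replicate 1 above that of replicate 2, which holds for 6.35% of all 21526 such transcripts. Slc39a5-202 was thus lower in the library where the gene as a whole was higher, and the exocrine pancreas markers moved in the same direction as this transcript. Their part in it was not tested.

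**Figure D3:**
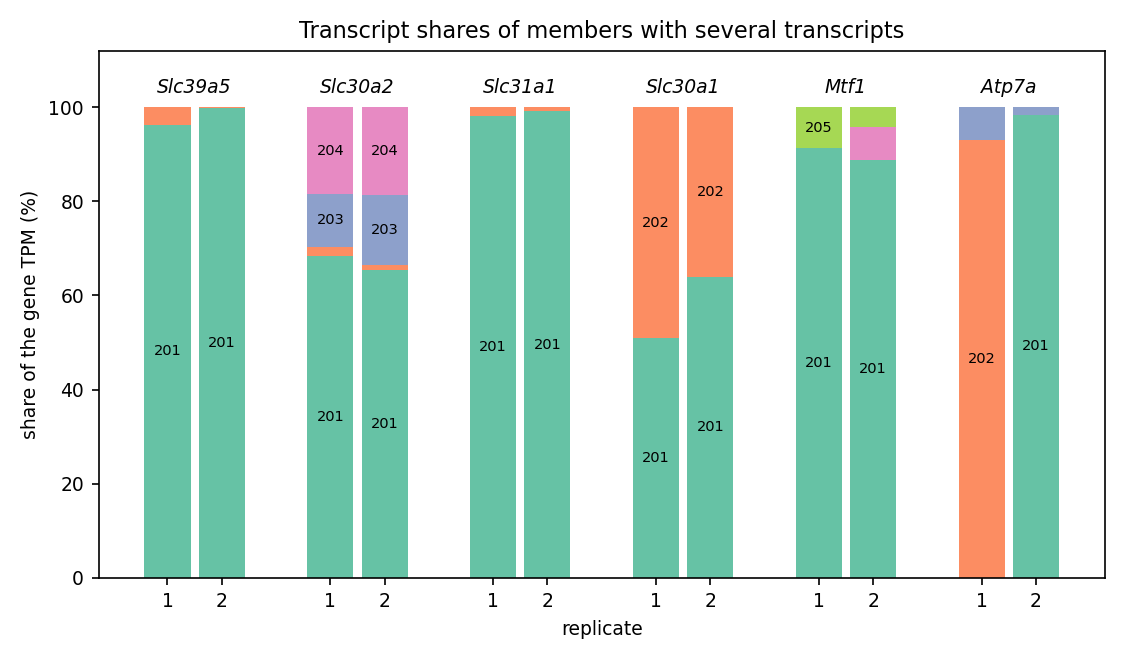
Transcript shares of the 6 members with several transcripts. Each bar is a replicate, its height the share of the gene's TPM in percent, and its segments are transcripts marked by their number; Slc30a2 keeps a similar mix in both libraries, Slc39a5-202 is visible in replicate 1 alone, and the main Atp7a transcript differs between the replicates.

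Zinc and manganese export genes differed from each other in direction. Slc30a1 (ENSMUSG00000037434.7, chromosome 1, 191906767 to 191913247) encodes the zinc exporter of the blood-facing membrane. It was at 12.2 and 13.3 TPM (12.8 ± 0.77, SD, n = 2), from 1720 and 1772 counts, and its credibility intervals overlapped. Slc30a2 (ENSMUSG00000028836.10, chromosome 4, 134343181 to 134354484) encodes a transporter that loads zinc into secretory vesicles, as in Paneth and pancreatic acinar cells. It was at 20.8 and 46.8 TPM (33.8 ± 18.4, SD, n = 2), from 2035 and 3521 counts. Slc30a10 (ENSMUSG00000026614.6, chromosome 1, 185454848 to 185468762) encodes a member of the same family known as a manganese exporter. It was at 29.4 TPM in replicate 1 against 8.25 TPM in replicate 2 (18.8 ± 15.0, SD, n = 2), from 8376 and 1825 counts. Slc30a10 was the only member with a higher TPM in replicate 1.

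Relative to the median gene, Slc30a10 differed by -2.38 log2 units and stood at percentile 1.99 of the 12260 genes. It was the only member over 2-fold higher in replicate 1, a difference that 6.32% of all tested genes reached in that direction. The difference was between -2.61 and -1.72 log2 units in every setting tried. Markers of the proximal small intestine moved with it. Of these 11 genes, 7 were over 2-fold higher in replicate 1 and 1 was over 2-fold higher in replicate 2. Their median was -2.30, while their sums, which are not centred, were close at 1424 and 1409 TPM. Distal markers went the other way, with 6 of the 8 tested over 2-fold higher in replicate 2. No proximal marker was at 0, and of the distal markers Fgf15, named after its values were seen, was at 0 in replicate 1. The part of the segments sampled, or of pancreas and stomach RNA, in the values of Slc30a10 or of these markers was not tested. An RNA on the opposite strand, Gm2061, overlaps the gene by 721 bases and was at 3.16 and 1.22 TPM; it was named after its values were seen.

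The centred difference between replicates was 0.47 log2 units for Slc30a2 and -0.55 for Slc30a1. Neither difference reached 2-fold. The direction of Slc30a1 turned with the scaling, at 0.11 without centring. Paneth cell markers, of which none was at 0, summed to 3236 and 13053 TPM, and 6 of 8 were over 2-fold higher in replicate 2. Exocrine pancreas markers went the other way, with all 15 over 2-fold higher in replicate 1 (272620 against 1792 TPM). The part of either set in the Slc30a2 values was not tested. Within a library, Slc30a2 was at 0.706 times the level of Slc30a10 in replicate 1 and at 5.67 times in replicate 2. Their mean log2 ratio of 1.00 ± 2.13 (SD, n = 2) did not exceed its spread.

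Slc30a2 kept a similar transcript mix in both libraries. Slc30a2-201, with 873 coding bases, held 68.3% and 65.4% of the gene's TPM. Slc30a2-204, which starts translation further upstream and has 1113 coding bases, held 18.4% and 18.7%. Slc30a2-203 shares that upstream start of translation, lacks an internal exon of 147 bases and held 11.3% and 14.8%. Together the models with the upstream coding start held 29.7% and 33.5%. Slc30a2-202 was listed at 2.00% and 1.09%.

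The TPM of Slc30a1 depended on how a short model was weighed. Slc30a1-202 is 677 bases long, lies within the exons of Slc30a1-201 and differs from it by a first exon that ends 4 bases earlier. It took 7.83% of the gene's counts in replicate 1 and 4.90% in replicate 2, but 49.1% and 36.1% of its TPM, because TPM divides by length. The full-length Slc30a1-201 alone was at 6.22 and 8.51 TPM from 1585 and 1685 counts. Its credibility intervals, 5.87 to 6.49 TPM and 8.01 to 8.85 TPM, did not overlap before any centring, whereas those of the whole gene did. With this transcript alone, a setting added once the data had been seen, the difference between replicates was -0.27 log2 units.

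Copper entry and exit genes were both low to moderate. Slc31a1 (ENSMUSG00000066150.8, chromosome 4, 62360727 to 62391769), the high-affinity copper channel, was at 14.6 TPM in replicate 1 against 33.0 TPM in replicate 2 (23.8 ± 13.0, SD, n = 2), from 2588 and 4550 counts. Atp7a (ENSMUSG00000033792.8, chromosome X, 106027276 to 106124926), whose loss causes Menkes disease, was at 0.54 and 0.82 TPM (0.68 ± 0.20, SD, n = 2), from 126 and 149 counts. Slc31a1 thus exceeded Atp7a 27.0-fold and 40.2-fold. Its difference relative to the median gene was 0.46 log2 units, and the gene overlaps Cdc26 on the opposite strand by 8116 bases. Cdc26, named after its values were seen, was at 2.81 and 5.52 TPM. Atp7a did not reach the mean of 1 TPM required for a difference, and its credibility intervals, 0.47 to 0.73 TPM and 0.71 to 1.05 TPM, overlapped.

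Slc31a1-201 held 98.1% and 99.1% of its gene's TPM. For Atp7a the leading transcript was not the same, since Atp7a-202 held 93.0% in replicate 1 and Atp7a-201 held 98.3% in replicate 2. These models share 20 of their 23 exons and begin 46 bases apart. The credibility intervals overlapped for each of them, at 0.22 to 0.55 TPM and 5.00e-06 to 0.72 TPM for Atp7a-202. The swap was therefore not resolved at this depth.

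Mtf1 (ENSMUSG00000028890.9, chromosome 4, 124802104 to 124849800), the zinc-sensing transcription factor, was at 2.21 TPM in replicate 1 against 10.2 TPM in replicate 2 (6.18 ± 5.61, SD, n = 2), from 765 and 2654 counts. It was the only member over 2-fold higher in replicate 2 relative to the median gene, by 1.13 log2 units at percentile 96.0, a size that 5.03% of all tested genes reached in that direction. The call rested on the scale: with a pseudocount of 5 the difference was 0.64 and no member was over 2-fold higher in replicate 2, whereas without centring 4 members were (Mtf1, Slc39a4, Slc30a2 and Slc31a1). Genes with models of 4000 bases or more had a median difference of 0.04 log2 units (1960 genes). Mtf1, at 7036 and 6856 bases, is among them, and the part of length in its values was not tested. Mtf1-201 held 91.4% and 88.7% of the gene's TPM. Mtf1-204, an intron-retaining model, had 0 counts in replicate 1 and 15.9 in replicate 2. On the opposite strand 1110065P20Rik, a gene outside the naming rule, overlaps Mtf1 by 721 bases. It was at 24.0 and 25.8 TPM, above Mtf1 in both libraries, and its part in the Mtf1 values was not tested. The summed TPM of Mt1 and Mt2 was 826 and 1389 (1108 ± 398, SD, n = 2). That sum is 374 and 137 times the TPM of Mtf1, so the ratio differed between these 2 libraries. A link between the levels was not tested.

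**Figure D4:**
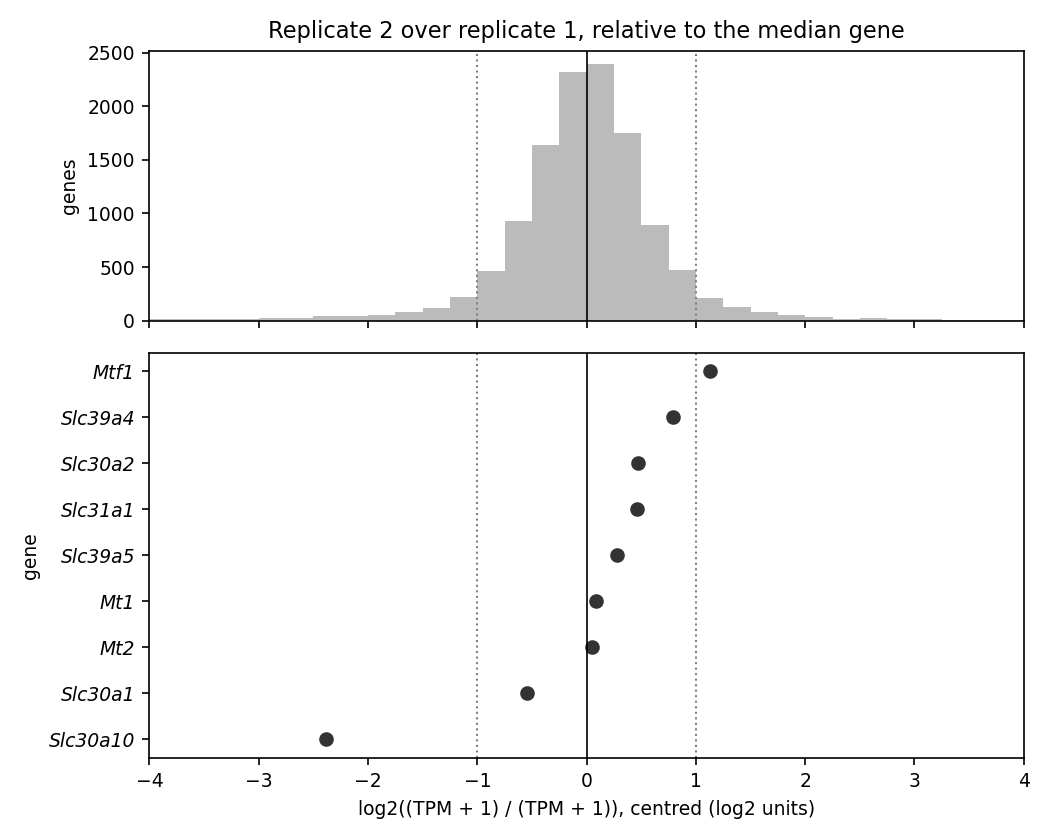
Difference between the replicates for the 9 members with a mean of at least 1 TPM (lower panel) and for all 12260 such genes (upper panel, number of genes per bin of a 0.25 width). The x axis is the centred log2 ratio of replicate 2 over replicate 1 and dotted lines mark 2-fold; Slc30a10 at -2.38 and Mtf1 at 1.13 lie outside the lines, and 7 members lie between them.

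Credibility intervals of the replicates were apart for 8 members. Replicate 2 was above in 7 of these, as in 73.5% of all tested genes, and replicate 1 was above in Slc30a10 alone, as in 6.37% of tested genes. These intervals are not centred on the median gene, so they follow the shift of all genes. The median centred difference over the 9 members with a mean of at least 1 TPM was 0.27.

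The other ZIP genes give the setting of the surface importers. Of the 14 family members, 10 had at least 1 TPM in both libraries, and Slc39a4 and Slc39a5 together held 48.2% of the family's TPM in replicate 1 against 62.2% in replicate 2 (55.2% ± 9.95, SD, n = 2). Slc39a7, which releases zinc from the endoplasmic reticulum, was at 82.2 and 111 TPM. Slc39a1, an importer of many cell types, was at 37.1 and 59.5 TPM, and Slc39a14, which also carries iron and manganese, was at 48.0 and 42.3 TPM. Slc39a2 (0.24 and 0.50 TPM), Slc39a6 (0.95 and 1.77 TPM) and Slc39a10 (0.63 and 0.79 TPM) were near or under 1 TPM. Slc39a12 had 0 counts in replicate 1 and 1 count in replicate 2. None of the 11 ZIP genes with a mean of at least 1 TPM was over 2-fold higher in either replicate, a count near the 6.32% and 5.03% of all genes, and their median difference was -0.16 log2 units.

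In the ZnT family 8 of 10 genes reached 1 TPM in both libraries, and the leading member was not the same. Slc30a10 held 31.7% of the family's TPM in replicate 1 and 6.60% in replicate 2, while Slc30a2 held 22.4% and 37.5%. Slc30a5 and Slc30a7, which load zinc into the secretory pathway, were at 11.0 and 19.6 TPM and at 2.77 and 5.72 TPM. Slc30a8, the transporter of insulin granules, had 6 counts in replicate 1 and 0 in replicate 2, where 0 allows up to 0.0434 TPM. Of the 5 islet markers, 3 of the 4 tested were over 2-fold higher in replicate 1 and Ppy and G6pc2, the latter named after its values were seen, were at 0 in replicate 2; their part in the Slc30a8 counts was not tested. Slc30a3 was at 0.13 TPM in both. Of the 8 genes tested, 1 (Slc30a10) was over 2-fold higher in replicate 1 and none in replicate 2, which lies near the 6.32% and 5.03% of all genes.

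The copper genes covered a wide range of levels. Among 16 genes of copper entry, chaperoning, export and mitochondrial delivery, 13 had at least 1 TPM in both libraries. Atox1, which hands copper to the pumps, was at 255 and 397 TPM, and Ccs, which loads superoxide dismutase, was at 18.7 and 32.6 TPM. Among the genes that deliver copper to cytochrome oxidase, Sco2 was at 187 and 255 TPM, Cox17 at 25.4 and 62.6 TPM and Sco1 at 4.54 and 8.75 TPM. Commd1 (3.98 and 4.32 TPM) and Cutc (1.01 and 3.34 TPM), both linked to copper balance, were lower. Atp7b, the related copper pump best known from liver, was at 4.37 and 4.64 TPM and so exceeded Atp7a 8.09-fold and 5.66-fold (mean log2 ratio 2.76 ± 0.36, SD, n = 2). None of the 13 tested was over 2-fold higher in either library, against 6.32% of all genes for replicate 1 and 5.03% for replicate 2, and their median difference was -0.03 log2 units.

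**Figure D5:**
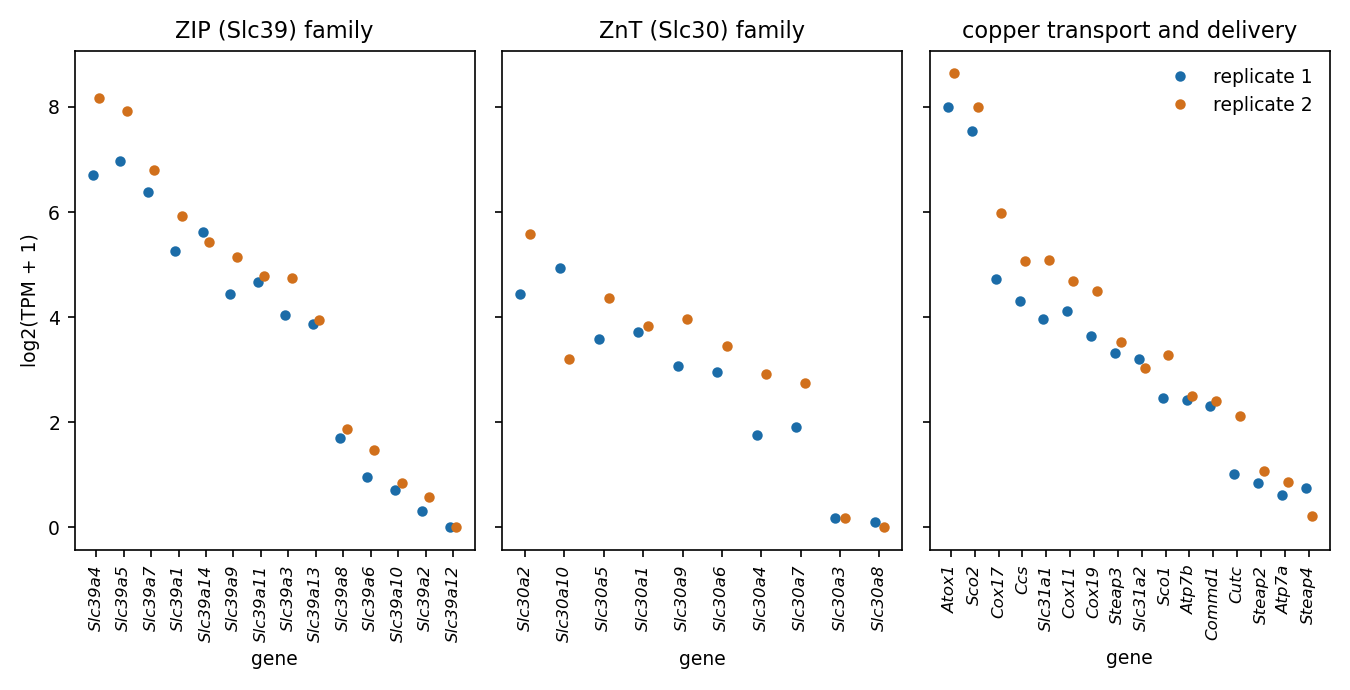
Levels of the ZIP family, the ZnT family and the copper genes. The y axis is log2(TPM + 1), each point is a gene in a replicate and genes are ordered by mean level; Slc39a4 and Slc39a5 lead the ZIP family, and Slc30a10 is higher in replicate 1 while the other ZnT genes with a mean of at least 1 TPM are not.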

How the data were processed

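Stranded, paired-read RNA-seq of 2 libraries was deposited as a gene table and a transcript table each. Per the file headers and the text deposited beside them, the tables hold expected counts (fragments shared out among transcripts by a model), TPM, FPKM, the percent of a gene's TPM in each transcript, and signal-type bounds of a TPM credibility interval whose level is not stated. The deposited text names mm10 and annotation M4; neither the aligner nor the quantifier is given in the sources used here. Symbols and positions came from GENCODE M21 (GRCm38, the mm10 assembly) by stable identifier, with 2 of the 10 members in the same gene version and 19 of their 23 transcripts at the same length. Promoter sequences came from RefSeq (GRCm38.p6).

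Ratios and lists were computed with Python 3.11.15, numpy 2.4.6 and pandas 2.3.3, and figures with matplotlib 3.10.9. Ratios used a pseudocount of 1 and were centred on the median over genes whose mean was at least 1 TPM; a difference beyond 1 log2 unit counts as over 2-fold. TMM factors (edgeR 4.0.16) and DESeq2 1.42.0 size factors on rounded counts were alternatives. Only the centred ratio and its 2-fold count were tested on simulated counts. The known changes were set in randomly chosen genes, which does not mimic the pancreas marker share of replicate 1. Nothing in the labels shows whether the replicates share animals, so their spread may be partly technical. The members, lists and alternatives were chosen with earlier results of these data known. The text names all members, any gene of the metal lists, the 4 highest of a marker list and any at 0 in both libraries, and no gene for likeness of pattern, since 2 libraries give 1 ratio per gene; genes named outside it are said to be so. The plasma cell, smooth muscle and liver lists summed to 32087 and 64008 TPM, 1304 and 1158 TPM, and 9.09 and 6.02 TPM in replicates 1 and 2.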

Additional observations from a re-analysis of the deposited data

How the results depend on the processing

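The count of members reaching the TPM minimum in both libraries was 8 to 10 under the alternatives tried. A single member stayed over 2-fold higher in replicate 1 under each of them. The summed metallothionein TPM, 1108 as reported, was 1098 from the deposited posterior mean TPM and 1280 after rescaling without the pancreas and stomach lists. The log2 ratio of Slc39a4 to Slc39a5 was -0.01 from the posterior mean and 0.02 from counts per base of annotated length. Leaving out a library only returned the value of the other, 826 or 1389 TPM and -0.27 or 0.25, so it tested neither result. The number of members over 2-fold higher in replicate 2, 1 as reported, was 0 with a pseudocount of 5, 2 when the median was taken over all genes above 0 TPM or the scale was set by spike-in RNA, and 4 without centring. The median gene then lay at 0.24, 0.35 and 0.66 log2 units. The log2 ratio of Mt1 to Mt2 was 4.50 from counts per base of annotated length. No ratio over 2-fold changed direction. No paired analysis was possible because the labels give a single group. Precision is limited by n = 2 and, for Atp7a, by 126 and 149 counts.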

Other observations

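Among the metal lists, the copper-dependent enzymes held the largest centred difference, that of Aoc1. Of 8 such genes, 6 had at least 1 TPM in both libraries, and of the 7 with a mean of at least 1 TPM, 2 were over 2-fold higher in replicate 2 and 1 in replicate 1, relative to the median gene, against 5.03% and 6.32% of all 12260 genes. Aoc1, the diamine oxidase that breaks down histamine in the gut, was at 68.6 TPM in replicate 1 against 732 TPM in replicate 2 (400.2 ± 469, SD, n = 2), from 8482 and 70563 counts, a centred difference of 2.73 log2 units. The median brush border marker moved in the same direction, by 1.11, though Alpi moved by -1.84. The marker sums, which are not centred, were 5710 and 8443 TPM, and the part of these markers in the Aoc1 values was not tested. Dbh, which makes noradrenaline, was at 0.03 and 3.25 TPM from 4 and 299 counts. Lox, which crosslinks collagen, was at 3.83 and 1.96 TPM. The 6 smooth muscle markers had a median of -0.88 log2 units and sums of 1304 and 1158 TPM, and their part in the Lox values was not tested. Sod1, the cytosolic superoxide dismutase, was at 195 and 328 TPM, a centred difference of 0.08 log2 units. Heph, the copper-dependent iron oxidase of the intestine, was at 13.0 and 22.2 TPM, and Pam, which amidates peptide hormones, was at 57.5 and 81.8 TPM.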
